A study of Mus musculus with 6 samples.

Results

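The genes described here encode the proton pump of the lysosome, the cathepsins and the lysosome-associated membrane proteins (LAMPs), in hearts of *Dst-b* mutant and wild-type (WT) mice. They were chosen by symbol: every listed gene whose symbol starts with Atp6v or Atp6ap, or is Cts plus 1 letter or Lamp plus 1 digit. The rule found 31 of the 13003 genes listed. They were 8 subunits of the V1 sector of the pump, 8 subunits of its V0 sector, 2 accessory subunits, 11 cathepsins and 2 LAMPs.

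RNA of ventricular myocardium was sequenced from 3 WT mice, labelled replicates 1, 3 and 4, and from 3 *Dst-b* mutant mice, labelled replicates 1, 2 and 3, with 1 library per mouse. The mutants were homozygous for a nonsense allele placed by CRISPR/Cas9 in an exon used only by *Dst-b*, the muscle isoform of dystonin, and were bred from heterozygotes on a C57BL/6J background. The allele was present in the germ line, so every cell of the heart carried it, and mice of both genotypes were 14 to 19 months old. The study used mice of both sexes, and the labels do not give the sex behind each library.

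The lysosome digests proteins, lipids and sugars that reach it by endocytosis or autophagy, and its enzymes work in an acid lumen. The acid comes from the vacuolar proton pump (V-ATPase), a rotary machine in which the cytosolic V1 sector hydrolyses ATP and turns a ring of V0 subunits that carries protons across the membrane. Cathepsins are the main proteases of that lumen, and the LAMPs are heavily glycosylated proteins that line the inner face of its membrane. In striated muscle, loss of LAMP-2 is known to cause a cardiomyopathy with accumulation of autophagic vacuoles, known as Danon disease. Many of these genes are regulated together by TFEB, a transcription factor that binds a short palindrome, the CLEAR motif, near the start of lysosomal genes.

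The centre of that motif is CACGTG, and its fuller form is TCACGTGA. Both read the same on the 2 strands, and each match of the longer also holds the shorter. They were searched in RefSeq promoter windows of GRCm38.p6 running from 250 bases before a transcript start to 50 bases after it. Of the 31 genes, 24 had a window, and the others were *Atp6v1b2*, *Atp6v1c1*, *Atp6v1g1*, *Atp6v1h*, *Atp6v0a2*, *Ctsb* and *Ctsh*. CACGTG occurred in 9 of the 24 genes (37.5%), namely *Atp6v0b*, *Atp6v0d1*, *Atp6v0e*, *Atp6v1a*, *Ctsa*, *Ctsd*, *Ctsf*, *Ctsl* and *Lamp1*, against 8.09% of the 27025 genes with a window and 11.7% of those that the deposited values list. TCACGTGA occurred in 5 of the 24 (20.8%), against 1.12% and 2.14%. A match describes letters in a window and is neither a binding site nor a cause of any value given here.

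The stretches below show the 5 genes with the longer motif, and *Lamp1* for its 4 matches of the shorter one, each read 5′ to 3′ on the strand of its gene with the matches in capitals. They lie at chr2:164833740-164833784 (plus strand, *Ctsa*), chr7:142387899-142387946 (minus, *Ctsd*), chr16:44139364-44139411 (minus, *Atp6v1a*), chr8:105566061-105566088 (minus, *Atp6v0d1*), chr17:26676378-26676405 (plus, *Atp6v0e*) and chr8:13159080-13159160 (plus, *Lamp1*) in GRCm38.p6.
Ctsa: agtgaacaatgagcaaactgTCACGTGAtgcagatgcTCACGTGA
Ctsd: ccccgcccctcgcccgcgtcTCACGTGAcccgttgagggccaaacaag
Atp6v1a: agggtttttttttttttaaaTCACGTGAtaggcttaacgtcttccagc
Atp6v0d1: agagccaggccctactgcggTCACGTGA
Atp6v0e: gcggggctttagcgcgccgaTCACGTGA
Lamp1: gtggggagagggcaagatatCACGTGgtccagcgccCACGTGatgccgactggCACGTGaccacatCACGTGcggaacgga

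Distances of the motif in these stretches are from the transcript start of the window searched. The 2 matches of *Ctsa* began 13 bases before and 4 bases after the start of its window's transcript, that of *Atp6v0d1* 4 bases before, and that of *Atp6v0e* 2 bases after. The match of *Ctsd* lay 99 bases before the start and that of *Atp6v1a* 132 bases before. For *Ctsa* and *Atp6v1a* these matches lie inside the span of the gene. Those spans begin at chr2:164832872 for *Ctsa* and, on the minus strand, at chr16:44139702 for *Atp6v1a*. The 4 matches of *Lamp1* lay 61, 45, 28 and 15 bases before its start. The genes with CACGTG had a median log2 fold change, mutant against WT, of 0.08, and the 15 genes with a window and without it had 0.06. None of the 9 was called in the test described next.

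Levels are given as CPM, the estimated count of a gene relative to the TMM-scaled total of its library, and the depth was 40693854 to 57580110 counted tags per library. Genes reaching 1 CPM in 3 or more libraries entered edgeR's quasi-likelihood test. The call required both a p under 0.01 and a Benjamini-Hochberg adjusted p under 0.1. All 31 genes passed the filter. Over the whole series 12955 genes were tested and 601 called, 4.64%, with 2.80% higher and 1.84% lower in the mutant. The CPM of the groups did not overlap for 21.9% of all tested genes, with the mutant above WT for 11.4% and below it for 10.5%. Of the libraries, mutant replicate 2 had 204 CPM of *Xist* and no count of *Ddx3y*, *Kdm5d*, *Eif2s3y* or *Uty*, while the other 5 had at most 0.30 CPM of *Xist* and held the Y-linked transcripts, so the X-linked genes *Atp6ap1*, *Atp6ap2* and *Lamp2* are also given without it. WT replicate 3 was highest in atrial transcripts, with 241 CPM of *Myl4*. Mutant replicate 3 was next at 136, and the rest were at 32.9 to 62.8. The total over the *Dst* gene was 448 ± 25.2 CPM in WT and 430 ± 24.1 in mutant hearts (SD, n = 3 each), a log2 fold change of -0.06 that was not called. The allele is a nonsense change in 1 isoform. By qPCR the study found *Dst-b* mRNA reduced in mutant hearts and *Dst-a* mRNA unchanged. The total here sums the isoforms and did not show that fall, so it does not check the genotype labels.

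Of the 31 genes, *Atp6v1h* alone was called, higher in the mutant hearts, against the 4.64% of all tested genes. The other 30 were not called, and most had narrow intervals. The 95% interval of the fold change lay within 1.5-fold in either direction for 30 of the 31 genes and within 1.3-fold for 27. Over all 12955 tested genes these counts were 9695 and 6374. The exception at 1.5-fold was *Atp6v0a4*. The median log2 fold change of the 31 was 0.07, with 23 above 0 and 8 below, beside a median of 0.00 with 6477 of 12955 above 0 over all tested genes. The spread between mice of 1 genotype had a median SD of 0.08 on log2(CPM + 0.5) for these genes, against 0.13 over all tested genes, without matching for level. Lists of related genes read below had similar medians, 0.11 for other hydrolases, 0.09 for membrane proteins, 0.09 for transport genes and 0.08 for partners of the pump.

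**Figure D1:**
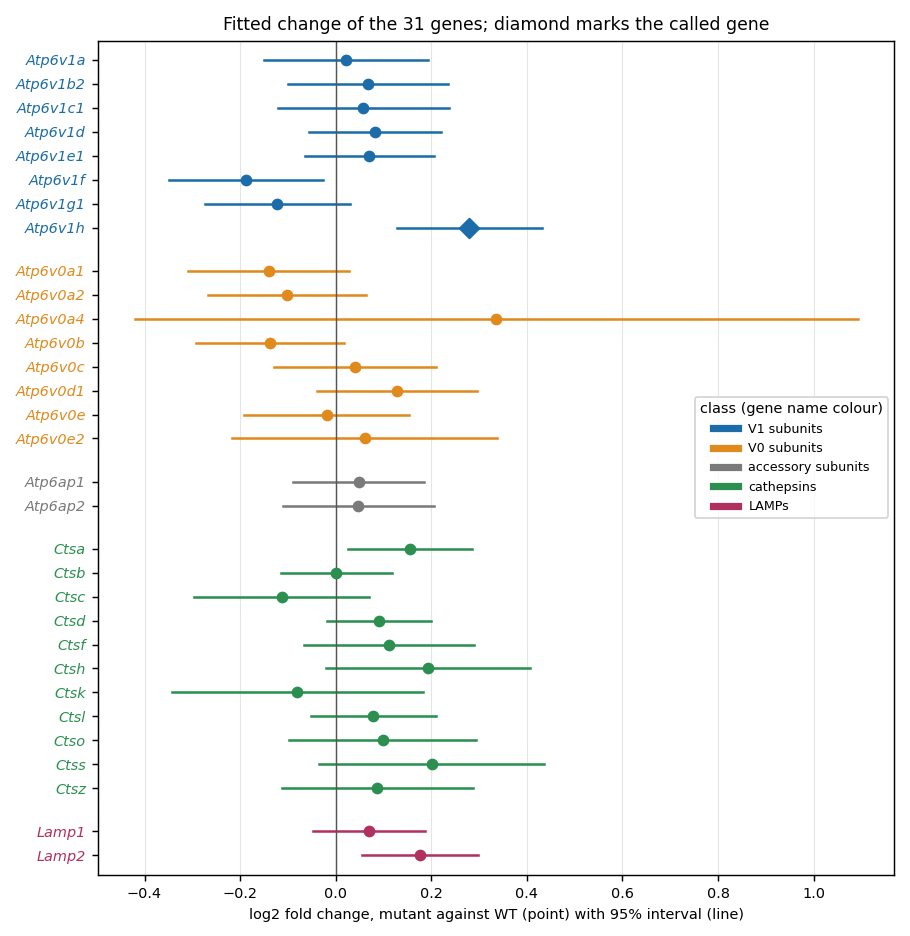
Fitted log2 fold change of each of the 31 genes, mutant against WT, on the horizontal axis, with the 95% interval of edgeR's quasi-likelihood fit as a line and 1 gene per row, coloured by class. The diamond marks *Atp6v1h*, the called gene at 0.28, and the widest interval belongs to *Atp6v0a4*.

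*Atp6v1h* encodes subunit H of V1, which is needed for ATP hydrolysis by the assembled pump and holds V1 silent when it is detached (Entrez 108664, chr1:5082978-5163213). The 3 WT libraries (replicates 1, 3 and 4, here and in every list that follows) had 49.4, 50.2 and 46.6 CPM, and the mutant libraries (replicates 1, 2 and 3) 60.4, 60.9 and 56.3. Every mutant library was above every WT library. The log2 fold change was 0.28 with a standard error of 0.07, a 1.21-fold difference with a 95% interval of 1.09 to 1.35 (adjusted p = 0.0678, edgeR). The call did not hold at an adjusted p under 0.05. It was also lost when any of 5 of the libraries was left out: the adjusted p was 0.140, 0.125 and 0.158 without WT replicates 1, 3 and 4, and 0.255 and 0.152 without mutant replicates 1 and 2. Without mutant replicate 3 it held, with an adjusted p of 0.0922. The log2 fold change stayed between 0.25 and 0.32 in these 6 fits. An exon of *Rgs20*, on the opposite strand, overlaps exons of *Atp6v1h* by 127 bases in GENCODE M21. *Rgs20* was not among the listed genes, and whether the counting used strand is not stated.

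The V1 sector holds the catalytic head of 3 A and 3 B subunits, the rotor shaft of D and F, and the peripheral stalks of E and G with C and H. Of its 8 genes, 1 was called higher and no gene was called lower. The class median was a log2 fold change of 0.06. *Atp6v1a*, the catalytic A subunit, had 34.5, 33.0 and 33.0 CPM in WT and 34.5, 36.1 and 31.4 in mutant hearts. *Atp6v1b2*, the B subunit of most tissues, had 94.6, 85.0 and 83.5 against 91.3, 97.7 and 86.9. Both genes of the head overlapped between the groups, with log2 fold changes of 0.02 and 0.07. The interval of the fold change was 0.902 to 1.14 for *Atp6v1a* and 0.934 to 1.18 for *Atp6v1b2*.

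*Atp6v1f*, a subunit of the rotor shaft, had 47.2, 53.8 and 51.3 CPM in WT and 43.2, 44.5 and 45.9 in mutant hearts. *Atp6v1g1*, a stalk subunit, had 134, 141 and 130 against 128, 129 and 115. For these 2 genes every mutant library lay below every WT library, as did 10.5% of all tested genes. Neither was called: the log2 fold change was -0.19 ± 0.07 for *Atp6v1f* (SE, adjusted p = 0.228, edgeR) and -0.12 ± 0.07 for *Atp6v1g1* (adjusted p = 0.41). With library totals in place of TMM the groups of *Atp6v1g1* overlapped. *Atp6v1d*, the other rotor subunit, *Atp6v1e1* and *Atp6v1c1* overlapped between the groups, with log2 fold changes of 0.08, 0.07 and 0.06. Thus 6 of the 8 V1 genes had fold changes above 1 and 2 below, and within V1 the highest and the lowest log2 fold change, 0.28 and -0.19, belonged to *Atp6v1h* and *Atp6v1f*.

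The V0 sector is the membrane part, with the proton path between subunit a and a ring of c subunits. None of its 8 genes was called in either direction, and the median log2 fold change was 0.01, with 4 genes above 0 and 4 below. *Atp6v0c*, the main ring subunit, had 33.8, 29.7 and 32.3 CPM in WT and 33.6, 31.8 and 33.3 in mutant hearts. *Atp6v0b*, a ring subunit also known as c″, had 75.2, 82.7 and 80.1 against 71.5, 75.8 and 69.0. The groups overlapped for both, with log2 fold changes of 0.04 and -0.14. *Atp6v0d1*, which couples the ring to the shaft, had 45.4, 44.1 and 48.6 against 49.3, 54.0 and 47.6, with a log2 fold change of 0.13 ± 0.08 (SE, adjusted p = 0.432, edgeR).

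Subunit a is encoded by 4 paralogues that steer the pump to different membranes. *Atp6v0a1* had 76.6, 71.1 and 81.1 CPM in WT and 64.9, 70.4 and 72.4 in mutant hearts. *Atp6v0a2*, found mostly on Golgi membranes, had 30.5, 28.5 and 28.9 against 27.8, 26.2 and 27.9. The values of *Atp6v0a2* did not overlap, yet the difference was small, with a log2 fold change of -0.10 ± 0.07 (SE, adjusted p = 0.544, edgeR), and an antisense transcript of 4930404A12Rik shares 663 bases with its exons. *Atp6v0a4*, the paralogue of acid-secreting kidney cells, was the least abundant of the 31 genes. It had 1.11, 1.45 and 1.45 CPM in WT and 1.98, 2.15 and 0.895 in mutant hearts, and its counts were 61, 59 and 67 in WT and 93, 126 and 41 in mutant hearts. Mutant replicates 1 and 2 were above every WT library and mutant replicate 3 below. Its log2 fold change was 0.34 with an interval of the fold change from 0.747 to 2.13. It was 0.63 without mutant replicate 3 (adjusted p = 0.342, edgeR), 0.11 without mutant replicate 2 and 0.21 without mutant replicate 1. *Atp6v0a4* shares 259 bases of exon on the same strand with D630045J12Rik, which was at 1.397 CPM in WT, so the counts of both are uncertain.

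Levels can be compared between genes only per length, and the deposited RPKM were used for that. On the RPKM scale *Atp6v0a1* took 52.2%, 51.4% and 54.1% of the sum of the 4 subunit a paralogues in WT and 49.8%, 51.7% and 53.3% in mutant hearts. With the deposited lengths *Atp6v0a2* followed with 32.2% ± 1.3 in WT and 32.5% ± 1.7 in mutant hearts (SD, n = 3 each). *Tcirg1*, the a3 paralogue of osteoclasts, which the symbol rule does not take, held 14.01% ± 0.3 and 14.2% ± 1.2, and *Atp6v0a4* held 1.24% ± 0.20 and 1.68% ± 0.69. The order of the 4 paralogues was the same in all 6 libraries with the deposited lengths, but not with the exon lengths of GENCODE M21, of which the deposited length of *Atp6v0a2* is 38.7%. With GENCODE lengths *Atp6v0a2* held 21.1% ± 0.9 in WT and 21.3% ± 1.3 in mutant hearts, and *Tcirg1* held 21.4% ± 0.5 and 21.7% ± 1.7, so that *Tcirg1* was above *Atp6v0a2* in WT replicates 3 and 4 and mutant replicate 2 and below it in the other 3 libraries. *Atp6v0a1* stayed the highest and *Atp6v0a4* the lowest in every library. The difference in the share of *Atp6v0a1*, mutant minus WT, was -0.925 percentage points (exact permutation test, two-sided, p = 0.5), and no share passed the exact test, with p between 0.4 and 1 where the smallest that 3 against 3 libraries allow is 0.1. Of the 2 paralogues of the small subunit e, *Atp6v0e* held 72.4% ± 0.8 in WT and 71.3% ± 1.7 in mutant hearts, and *Atp6v0e2* held the rest (exact p = 0.4).

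The accessory subunits *Atp6ap1* (Ac45) and *Atp6ap2* (the prorenin receptor), which take part in assembly of the pump, are X-linked. *Atp6ap1* had 138, 145 and 133 CPM in WT and 138, 147 and 144 in mutant hearts, and *Atp6ap2* had 32.9, 33.7 and 31.2 against 33.5, 34.7 and 32.8. Both overlapped between the groups, each with a log2 fold change of 0.05. Without mutant replicate 2 the values were 0.02 and 0.02.

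**Figure D2:**
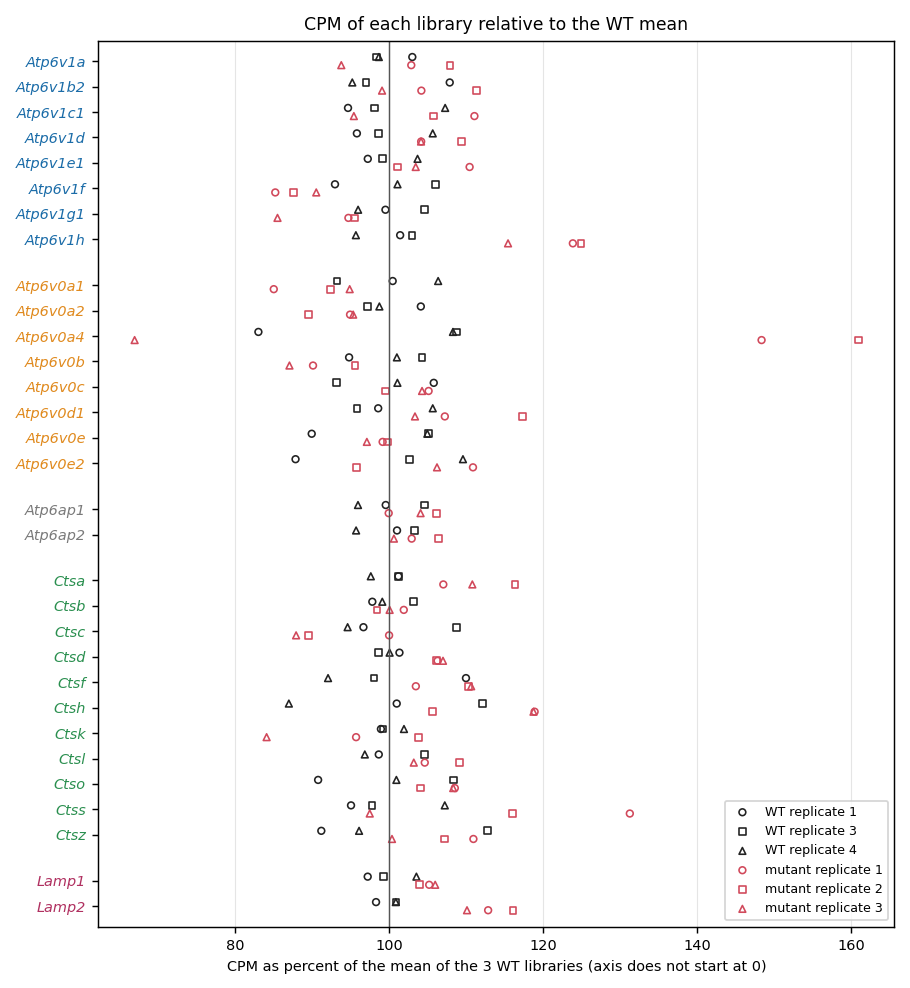
CPM of each library on the horizontal axis as percent of the mean of the 3 WT libraries, 1 row per gene, with WT libraries in black and mutant libraries in red; the axis does not start at 0. The 3 mutant libraries of *Atp6v1h* and *Lamp2* sit to the right of all WT libraries and those of *Atp6v1f* to the left, and *Atp6v0a4* has the widest scatter.

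Cathepsins are aspartic, serine or cysteine proteases. None of the 11 was called in either direction, and the median log2 fold change was 0.09, with 9 of 11 above 0. *Ctsd*, the main aspartic protease of the lysosome, had 1496, 1457 and 1477 CPM in WT and 1569, 1567 and 1580 in mutant hearts. All mutant libraries lay above all WT libraries, at a log2 fold change of 0.09 ± 0.05 (SE, adjusted p = 0.394, edgeR), a 1.06-fold difference. *Ctsa*, a serine carboxypeptidase that also protects β-galactosidase and neuraminidase, had 188, 188 and 181 against 198, 216 and 205. Its groups did not overlap either, at a log2 fold change of 0.16 ± 0.06 (SE, adjusted p = 0.22, edgeR), and its exons share 495 bases with *Pltp* and 324 bases with *Neurl2* on the opposite strand. The log2 fold changes of these 2 neighbours were -0.21 and -0.15.

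The cysteine proteases *Ctsb* and *Ctsl* are the abundant endopeptidases of most cells. *Ctsb* had 617, 651 and 625 CPM in WT and 643, 621 and 631 in mutant hearts, a log2 fold change of 0.00 with an interval of the fold change of 0.923 to 1.09. *Ctsl* had 227, 241 and 223 against 241, 251 and 238, with a log2 fold change of 0.08. Both genes overlapped between the groups. *Ctsh*, an aminopeptidase, had 81.5, 90.5 and 70.2 against 96.0, 85.2 and 95.8 (0.19 ± 0.10, SE, adjusted p = 0.346, edgeR). *Ctsf*, *Ctso* and *Ctsz* had log2 fold changes of 0.11, 0.10 and 0.09.

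*Ctss*, *Ctsc* and *Ctsk* are known from antigen-presenting cells, granule-bearing leukocytes and osteoclasts. *Ctss* had 38.1, 39.2 and 43.0 CPM in WT and 52.7, 46.6 and 39.1 in mutant hearts, the highest log2 fold change among the cathepsins (0.20 ± 0.11, SE, adjusted p = 0.379, edgeR). Mutant replicate 3 lay within the WT range, and mutant replicate 1 was the highest library. The summed CPM of 21 macrophage markers was 900, 942 and 877 in WT and 1037, 936 and 880 in mutant hearts. Among the mutants the same library was highest and the same one lowest as for *Ctss*. The WT libraries did not share the order: WT replicate 4 was highest for *Ctss* and lowest for the marker sum. None of the 21 markers was called, and 18 had fold changes above 1. The median log2 fold change of the 21 was 0.09. *Ptprc* and *C1qa*, the 2 with the smallest p, were at 0.28 and 0.13 (adjusted p = 0.209 and 0.514, edgeR). The groups did not overlap for 1 of the 21, *Ptprc*, with the mutant above, beside 21.9% of all tested genes. The markers *Cd68*, *Csf1r* and *C1qb* were at 10.8, 96.4 and 58.3 CPM on average in WT, with log2 fold changes of 0.06, -0.07 and 0.11. Their part in the values of *Ctss* was not tested, and in whole tissue a change in the number of such cells cannot be told apart from a change in RNA per cell. *Ctsc* and *Ctsk* pointed the other way, with log2 fold changes of -0.11 and -0.08, and their groups overlapped. Of 6 listed markers of mast cells, neutrophils and lymphocytes, none was called, and their summed CPM was 14.2 to 17.5 in WT and 12.0 to 16.1 in mutant hearts. *Kit* and *Cma1*, the 2 of them with the smallest p, had log2 fold changes of -0.35 and -0.46.

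The 2 LAMPs make up much of the protein of the lysosomal membrane, and LAMP-2 is needed for fusion of autophagosomes and for chaperone-mediated autophagy. *Lamp2* (Entrez 16784, chrX:38399647-38456460) had 231, 237 and 237 CPM in WT and 265, 273 and 259 in mutant hearts. All mutant libraries lay above all WT libraries, at a log2 fold change of 0.18 ± 0.05 (SE), but the adjusted p of 0.138 from edgeR missed the threshold. DESeq2 called it, with an adjusted p of 0.0615, and no other fit did. Without mutant replicate 2 the log2 fold change was 0.15 (adjusted p = 0.262, edgeR). *Lamp1* had 575, 588 and 613 against 623, 615 and 627, also without overlap but by a narrow margin, at a log2 fold change of 0.07 ± 0.05 (SE, adjusted p = 0.553). With upper-quartile scaling the groups of *Lamp1* overlapped. The 3 protein isoforms of LAMP-2 arise by splicing of the last exon, and counts summed over the gene do not separate them.

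Across the 31 genes, the groups did not overlap for 8 (25.8%), beside 21.9% of all tested genes. The mutant was above for 5, *Atp6v1h*, *Ctsa*, *Ctsd*, *Lamp1* and *Lamp2*, and below for 3, *Atp6v0a2*, *Atp6v1f* and *Atp6v1g1*. Over all tested genes the mutant was above for 11.4% and below for 10.5%. All 3 below were subunits of the pump, to which 18 of the 31 genes belong with its accessory subunits. Of the 5 above, *Atp6v1h* is also of the pump, and 4 were cathepsins or LAMPs. *Atp6v1g1* overlapped with library totals, and *Lamp1* with upper-quartile scaling. This split by class was seen in the values and was not tested. Together the 31 genes held 4891, 4964 and 4934 CPM in WT and 5178, 5177 and 5117 in mutant hearts, a sum 4.62% higher on average in the mutants, with no test made of it. A large part of that sum was *Ctsd*. Without it the other 30 genes summed to 3394, 3507 and 3456 in WT and 3608, 3610 and 3537 in mutant hearts, 3.83% higher on average and without overlap. With library totals in place of TMM this sum overlapped between the groups, at 3466 in mutant replicate 3 and 3497 in WT replicate 3. Without *Ctsd*, *Lamp1* and *Lamp2* the other 28 genes summed to 2588, 2683 and 2607 against 2721, 2722 and 2651, so that the groups then overlapped. The 16 V1 and V0 subunits summed to 1092, 1110 and 1133 in WT and 1134, 1140 and 1089 in mutant hearts.

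**Figure D3:**
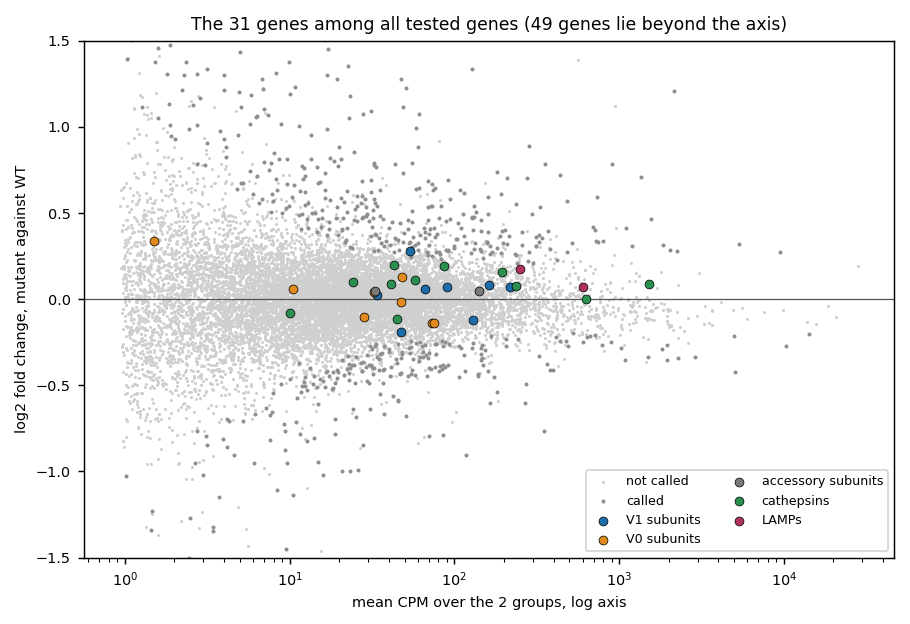
Each tested gene by its mean CPM (horizontal, log axis) and its log2 fold change, mutant against WT (vertical), in grey, with called genes darker and the 31 genes coloured by class; 49 genes lie beyond the axis. Most of the 31 genes sit close to 0, and the farthest above it are *Atp6v0a4*, the lowest in level, at 0.34 and *Atp6v1h* at 0.28.

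Per length, the range of levels within the group was wide. *Ctsd* had an RPKM of 749 ± 8.9 in WT and 805 ± 14 in mutant hearts (SD, n = 3 each), the highest of the 31, and *Lamp1* followed with 261 ± 8.3 and 276 ± 4.3. Among cathepsins the order in WT was *Ctsd*, *Ctsb* (132), *Ctsl* (116), *Ctsh* (53.7), *Ctsa* (49.0) and then 6 genes between 5.62 and 29.4, of which *Ctso* was the lowest. Among V1 subunits *Atp6v1e1* (175), *Atp6v1g1* (123) and *Atp6v1d* (110) were the highest, and *Atp6v1h* (13.4) and the catalytic *Atp6v1a* (6.15) the lowest. In V0 the 2 ring subunits *Atp6v0c* (142) and *Atp6v0b* (106) led, and the a paralogues ranged from 18.3 down to 0.43. *Lamp2* was at 24.5.

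These orders rest on the exon lengths deposited with the values. For 10 of the 31 genes that length was under 50% of the union of exons in GENCODE M21, with a median of 78.3%. For *Atp6v0c* the deposited length was 224 bases against 3384, and with the longer length its WT level would be 9.38 in place of 142. *Ctsl* would be at 35.3 in place of 116 and *Atp6v1d* at 33.8 in place of 110. *Ctsd* and *Lamp1* would still be the 2 highest of the 31, at 624 and 220. Of the 31 genes, 11 share exon sequence with another gene, 4 of them with a gene that is itself listed, and 14 had counts that were not whole in some library.

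**Figure D4:**
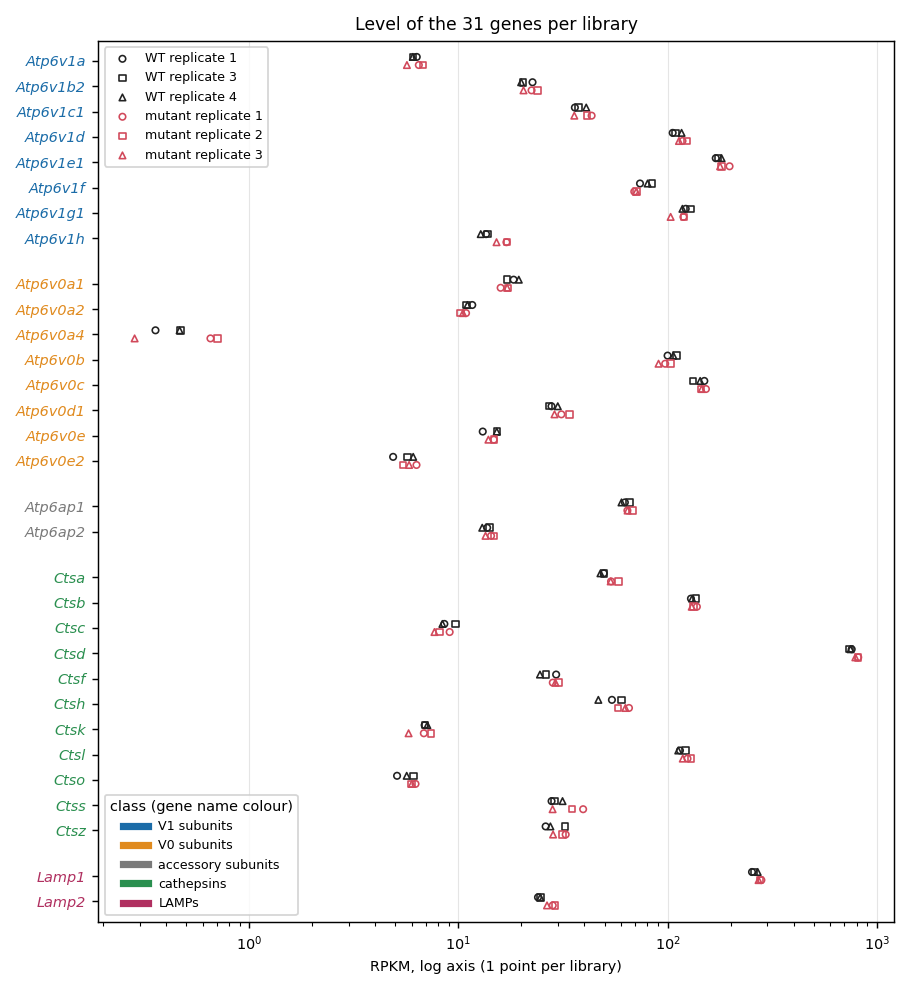
Deposited RPKM of the 31 genes on a log axis, 1 row per gene and 1 point per library, with WT libraries in black and mutant libraries in red. Levels run from under 1 for *Atp6v0a4* to 749 (WT mean) for *Ctsd*, and the 6 libraries of a gene lie close together beside the differences between genes.

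Other genes of the pathway were read from lists written beside the symbol rule. The counts called in these lists stand beside the 4.64% called of all tested genes. Of 45 tested lysosomal hydrolases other than cathepsins, the call took in 1, a higher gene, and the median was a log2 fold change of -0.01. It was *Fuca2*, a fucosidase placed in this list from general knowledge, and where its protein acts was not tested. *Fuca2* had 169, 170 and 148 CPM in WT and 192, 211 and 194 in mutant hearts (0.30 ± 0.07, SE, adjusted p = 0.0697, edgeR). This call was lost without any 1 of the 6 libraries (adjusted p 0.107 to 0.186, edgeR). Of 33 lysosomal membrane proteins and cofactors, 1 was called lower and none higher, with a median of -0.08. It was *Abcb9*, a peptide transporter, with 12.6, 11.6 and 15.6 against 8.47, 8.61 and 9.69 (-0.58 ± 0.13, SE, adjusted p = 0.0591). That call held only without WT replicate 3 and without mutant replicate 3, and the adjusted p was 0.112 to 0.235 in the other 4 fits.

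Of 24 genes of nutrient sensing and TFEB at the lysosome, 1 was called, higher. It was *Rragd*, a GTPase that recruits the growth kinase mTORC1 to the lysosome and is itself a target gene of TFEB. It had 94.8, 88.6 and 99.8 CPM in WT and 126, 122 and 129 in mutant hearts, with every mutant library above every WT library. The log2 fold change was 0.41 ± 0.07 (SE, adjusted p = 0.0125, edgeR), and the call held in each fit that left out 1 library, with adjusted p from 0.0174 to 0.0771. The median over the 24 genes was -0.01.

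None of 31 genes that carry hydrolases to the lysosome was called in either direction. The 2 with the smallest p were *Arl8a*, a GTPase that moves lysosomes along microtubules, at 0.21 ± 0.09, and *Gnptab*, which makes the mannose 6-phosphate tag, at 0.16 ± 0.08 (log2 fold change, SE). None of 15 assembly factors and partners of the pump was called, among them *Tmem9* at -0.39 ± 0.13 (SE, adjusted p = 0.173, edgeR) and *Rogdi*, which resembles a yeast factor for reassembly of the pump, at 0.27 ± 0.11 (SE, adjusted p = 0.251). None of 11 inhibitors of cathepsins and related proteases was called, with *Serpina3n* at 0.57 ± 0.28 and *Serping1* at 0.16 ± 0.09.

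The tissue markers bear on what cells the counts came from, and their calls stand beside the 4.64% called of all tested genes. The 12 cardiomyocyte markers were all present, with *Actc1* called higher at 0.28 and *Ckm*, *Mb* and *Myl3* called lower at -0.33, -0.20 and -0.27 on the log2 scale. Leaving out 1 library at a time, the calls of *Actc1*, *Mb* and *Myl3* were each lost in 4 of 6 fits and that of *Ckm* in 3. Of these 4 genes, those lost were all 4 without WT replicate 1, WT replicate 4 or mutant replicate 1, *Actc1* and *Mb* without WT replicate 3, and *Myl3* without mutant replicate 2. Of 12 fibroblast markers *Col1a1* was called higher at 0.46, and of 10 endothelial markers *Tie1* and *Egfl7* were called lower at -0.30 and -0.35. The call of *Col1a1* held without any 1 library, while that of *Tie1* held only without WT replicate 4 or mutant replicate 2 and that of *Egfl7* only without mutant replicate 2. The summed CPM of the cardiomyocyte markers was 138160 to 141396 in WT and 129322 to 143774 in mutant hearts. That of the fibroblast markers was 5244 to 6112 in WT and 5761 to 6389 in mutant hearts, and that of the endothelial markers 2383 to 3149 and 2554 to 2763. The log2 fold change was below 0 for 9 of 12 cardiomyocyte and 9 of 10 endothelial markers, and above 0 for 9 of 12 fibroblast markers. The groups did not overlap for 6 cardiomyocyte, 5 endothelial and 3 fibroblast markers, beside 21.9% of all tested genes. For all 5 endothelial ones the mutant was below. The atrial markers summed to 243, 1138 and 290 CPM in WT replicates 1, 3 and 4 and to 943, 1053 and 910 in mutant hearts. The overlap rested on WT replicate 3. Much of that sum was *Nppa*, with 119, 671 and 144 CPM in WT and 877, 926 and 639 in mutant hearts. None of the 6 tested was called, with 2 above 0 on the log2 scale and 4 below. *Nppa* (1.39) and *Myl7* (-0.80) had the smallest p among them, and *Myl4* and *Sln* were at -0.71 and -0.73. The study found *Nppa* mRNA raised in the left ventricle of mutant mice, so the sum does not measure atrial tissue. Without WT replicate 3 *Nppa* was called higher at 2.63 (adjusted p = 0.000574, edgeR), and *Myl7* was at -0.16. The part of these markers in the values of the lysosomal genes was not tested.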

How the data were processed

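RNA-seq of 3 WT and 3 *Dst-b* mutant hearts was analysed from the deposited tables. Per the study's methods, OLego aligned the paired-end reads (build GRCm38/mm10) and Quantas gave gene expression. The deposited columns used were the authors' estimated counts (tags) and their RPKM, for 13003 genes. The library kit is TruSeq in the paper's methods and NEBNext Ultra II Directional in the labels. The members were to be taken as CPM, but the column holds estimated counts, which were rounded and tested as counts. The totals of WT replicates 1, 3 and 4 were 55296384, 40693854 and 46565372 tags, those of mutant replicates 1, 2 and 3 46027698, 57580110 and 46754430.

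TMM factors and quasi-likelihood tests came from edgeR 4.0.16 (R 4.3.3), two-sided, with genotype as the only term, Benjamini-Hochberg adjustment over 12955 genes, and a biological coefficient of variation of 12.3%. Standard errors and 95% intervals are from that fit. The fit was first tested on simulated data. Alternatives were other scalings and filters, edgeR's exact test, limma 3.58.1 with a trend on log2(CPM + 0.5), DESeq2 1.42.0, an adjusted p under 0.05, a replicate block, and leaving out each library. P values of edgeR's fits set the genotype difference against the spread between these libraries. Those of the exact permutation test come from reordering the libraries between the groups. Every gene of the symbol rule could be named, and of each other list up to 4 called genes with the smallest p, or 2 genes where none was called. *Tcirg1*, single cell type markers and the checks of libraries were named after their values were seen. The members and the lists were chosen with earlier results of these data known. Positions and promoters are from RefSeq on GRCm38.p6, exon overlaps and lengths from GENCODE M21. The exon length of GENCODE M21 was added as an alternative for the paralogue shares after the data had been seen. Protein sequences and isoforms were not analysed here.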

Additional observations from a re-analysis of the deposited data

How the results depend on the processing

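The count of all genes called, 601, was 1028 with DESeq2, 304 at an adjusted p under 0.05 and 141 to 489 when 1 library was left out. The replicate numbers shared by the groups are only labels, with correlations of 0.0072 and -0.049 between the same-numbered libraries. With the replicate number as a block the count was 966, and *Atp6v1h* was not called (log2 fold change 0.23, adjusted p = 0.19, edgeR). In that fit WT replicate 4 and mutant replicate 2 had no same-numbered partner. The genotype effect there rested only on replicates 1 and 3 of each group, so the fit does not weigh all libraries. Of the 31 genes, called higher were 2 with DESeq2 (*Atp6v1h* and 1 LAMP, *Lamp2*), 0 at an adjusted p under 0.05, 0 with the block and 0 to 1 when 1 library was left out. For the V1 subunits the last 3 counts were likewise 0, 0 and 0 to 1. Under the other scalings, filters and tests 1 gene was called, *Atp6v1h*, with an adjusted p of 0.0455 to 0.0706. The median log2 fold change of the accessory subunits was -0.00296 with the block, and that of the V0 subunits -0.049 to 0.032 when 1 library was left out.

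Of 495 comparisons of a gene's log2 fold change with its value under an alternative, 472 kept direction and call and 15 changed sign, all in 8 genes that were not called and whose log2 fold change was at most 0.07 in size. The replicate block compares only the same-numbered libraries. With it the log2 fold change was -0.035 for *Atp6v1a*, -0.0099 for *Atp6v1b2*, 0.013 for *Atp6v0e*, -0.00047 for *Atp6ap1* and -0.0054 for *Atp6ap2*. For *Ctsb* it was -0.00103 with median-of-ratios scaling and -0.00101 with DESeq2. Leaving out 1 library gave -0.030 to 0.076 for *Atp6v1a*, -0.0098 to 0.084 for *Atp6v0c*, -0.091 to 0.017 for *Atp6v0e*, -0.026 to 0.13 for *Atp6v0e2*, -0.014 to 0.021 for *Ctsb* and 0.25 to 0.32 for *Atp6v1h*. The cause was not tested. Each difference in a paralogue's share moved by less than its spread between libraries with CPM, with GENCODE lengths and without any 1 library.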
